A study of Mus musculus with 8 samples.

Results

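The mitochondrial ATP synthase was followed through 9 genes of its subunits, Atp5a1, Atp5b, Atp5c1, Atp5d, Atp5g1, Atp5g2, Atp5g3, Atp5j and Atp5o, and through Atpif1, the gene of its inhibitor. The members were the 20 probe sets that the platform annotation gives to 1 of these 10 symbols alone, out of 45037 probe sets for cellular transcripts. A probe set is a group of short oligonucleotides read together as 1 value. RNA came from C2C12 myotubes, multinucleated muscle cells formed by an established mouse myoblast line in 2% dialysed serum. After 3 days of differentiation the cells received an adenovirus, and RNA was taken 3 days later. Of the 8 arrays, 2 each came from cells given GFP-tagged PGC-1α plus 100 µM of the iron chelator deferoxamine (GFP-PGC-1α+DFO), GFP-tagged PGC-1α alone (GFP-PGC-1α), GFP plus deferoxamine (GFP+DFO) and GFP alone (GFP). All 4 groups therefore carried a virus and GFP, and uninfected cells were not analysed here. Both arrays of each group are biological duplicates by the submitters' account.

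ATP synthase, complex V of oxidative phosphorylation, sits in the inner mitochondrial membrane and lets protons flow back into the matrix. The flow turns a ring of c subunits and the central stalk, and the turning stalk drives the catalytic head to make ATP from ADP and phosphate, while a peripheral stalk keeps the head from turning along. The enzyme itself holds no iron, whereas the respiratory chain that feeds it depends on iron-sulfur clusters and haem. PGC-1α is a coactivator known for raising genes of mitochondrial energy metabolism in muscle, through partners such as the nuclear receptor ERRα and the factor NRF1.

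The c ring is the one place in the enzyme where 3 genes, Atp5g1, Atp5g2 and Atp5g3, encode the same mature protein with different import sequences. Their promoters are shown because they carry different matches to motifs, or parts of motifs, of the partners of PGC-1α. The windows run from 250 bases before the RefSeq start of each gene to 30 after it (RefSeq, GRCm38.p6; all on the minus strand). Capitals mark TCAAGGT and AAGGTCA, the letters that nuclear receptors such as ERRα read, and CGCANGCG, the core of the NRF1 motif, each on either strand.
Atp5g1, chr11:96075602-96075881: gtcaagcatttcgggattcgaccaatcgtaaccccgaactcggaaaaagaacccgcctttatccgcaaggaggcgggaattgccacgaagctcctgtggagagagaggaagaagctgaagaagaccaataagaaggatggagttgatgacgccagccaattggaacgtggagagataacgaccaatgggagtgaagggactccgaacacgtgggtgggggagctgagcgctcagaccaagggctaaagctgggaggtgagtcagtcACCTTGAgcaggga
Atp5g2, chr15:102671018-102671297: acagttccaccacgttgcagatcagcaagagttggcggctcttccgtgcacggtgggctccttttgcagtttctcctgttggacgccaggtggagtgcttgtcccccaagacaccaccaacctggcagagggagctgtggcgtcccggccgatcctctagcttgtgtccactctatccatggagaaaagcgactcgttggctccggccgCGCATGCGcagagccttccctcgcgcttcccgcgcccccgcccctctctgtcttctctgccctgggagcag
Atp5g3, chr2:73911297-73911576: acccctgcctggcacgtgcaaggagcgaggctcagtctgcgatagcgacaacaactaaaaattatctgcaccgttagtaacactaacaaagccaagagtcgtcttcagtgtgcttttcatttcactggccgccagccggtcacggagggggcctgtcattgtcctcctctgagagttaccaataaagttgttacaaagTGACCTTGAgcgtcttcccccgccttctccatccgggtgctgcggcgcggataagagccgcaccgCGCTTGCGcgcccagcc

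Over windows extended to 50 bases after the start, Atp5g1 had a TCAAGGT and no CGCANGCG, Atp5g2 had a CGCANGCG and no TCAAGGT, and Atp5g3 had both. In Atp5g3 the TCAAGGT overlapped an AAGGTCA. The TCAAGGT of Atp5g1 did not, so only the start of the ERRα site was matched there, 16 bases after the RefSeq start. Among 32851 such windows of the mouse genome, TCAAGGT was found in 3.498%, AAGGTCA in 4.718% and CGCANGCG in 8.21%. A window was held for 9 of the 10 member genes, all but Atp5a1. Atp5c1, Atp5d and Atp5j had 2 windows each, and a gene was counted if any of its windows held the letters. The percentages are shares of single windows, so counts of genes are not the same measure. CGCANGCG was found in 7 of the 9, all but Atp5b and Atp5g1. TCAAGGT was found only in Atp5g1 and Atp5g3 of the 9, and AAGGTCA only in Atp5g3 and Atpif1. CCGGAAG, a core read by ETS factors, was found in Atp5j alone among the 9, against 8.858% of all windows. ACGTG, the core of the hypoxia response element, was found in 5 of the 9, against 19.625% of all windows. These matches are letters in a window and were not tested for binding.

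Array medians lay between 59.45 and 62.82 intensity units, and replicate arrays had correlations of 0.942 to 0.962 in log2 intensity (across probe sets, not replicates). Ppargc1a, the gene of PGC-1α, averaged 7820 units with GFP-PGC-1α+DFO, 7123 with GFP-PGC-1α, 57.4 with GFP+DFO and 33.0 with GFP. Car9, a carbonic anhydrase induced by hypoxia signalling, rose by 5.39 ± 0.32 on the log2 scale with DFO in GFP-PGC-1α cells and by 4.89 ± 0.32 in GFP cells (SE; limma adjusted p = 0.00101 and 0.00166). Tfrc, also chosen to check the DFO label, was not called with DFO. Its log2 change was 0.014 ± 0.11 in GFP-PGC-1α cells and 0.16 ± 0.11 in GFP cells (limma adjusted p = 0.958 and 0.43). With the construct Tfrc rose by 0.93 ± 0.11 without DFO and 0.78 ± 0.11 with DFO (adjusted p = 0.0228 and 0.0189). The summed level of 12 myotube genes was 18662 to 19932 units with GFP-PGC-1α+DFO, 61882 to 61984 with GFP-PGC-1α, 28569 to 28576 with GFP+DFO and 72165 to 75258 with GFP. On average over the arrays all 12 stood above the median level, and so did 7 of 8 myoblast genes, so this measure alone does not separate the 2 stages. With GFP-PGC-1α+DFO the 2 lowest of the 12, Myog and Mef2c, averaged 67.1 and 89.6 units, close to the median level of 60.4 units. The others ran from 144 units (Myh8) to 6168 (Acta1), and Des, at 4550, was called in no single-factor comparison. The summed level of the 8 myoblast genes was 1551 to 1858 units with GFP-PGC-1α+DFO, 3354 to 3434 with GFP-PGC-1α, 1518 with GFP+DFO and 3279 to 3420 with GFP. Of these 8, limma called 2 higher and 4 lower with DFO in GFP-PGC-1α cells, and 1 and 4 in GFP cells. Of the 12 myotube genes limma called 11 lower with DFO in GFP-PGC-1α cells and 10 lower in GFP cells, and for the construct it called 9 lower and 1 higher under DFO and 0 without DFO. As a sign of RNA integrity, the 5' over the 3' probe set of Actb gave ratios of 0.753 and 0.811 with GFP-PGC-1α+DFO, 0.868 and 0.859 with GFP+DFO, and 0.897 to 0.921 without DFO. The part of these shifts in the changes of the ATP synthase genes with DFO, and with the construct under DFO, was not tested. In RNA from whole cultures, fewer cells of a type and less RNA per cell cannot be told apart.

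The 20 probe sets fell into 13 bright ones, whose lowest array read 908.5 units, and 7 dim ones, whose highest array read 98.88 units. Every member gene had at least 1 bright probe set. On the deposited values, 11 of the 13 had the 4 groups in the same order, highest with GFP-PGC-1α, then GFP-PGC-1α+DFO, then GFP, and lowest with GFP+DFO. Atp5g2 and Atpif1 kept other orders, given with their values. Neighbouring groups in these orders did not overlap on any bright probe set except Atp5j, whose GFP-PGC-1α+DFO and GFP arrays overlapped. The share of all probe sets with this order, or with groups that did not overlap, was not counted. Neither trait can therefore be read as particular to the members.

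**Figure D1:**
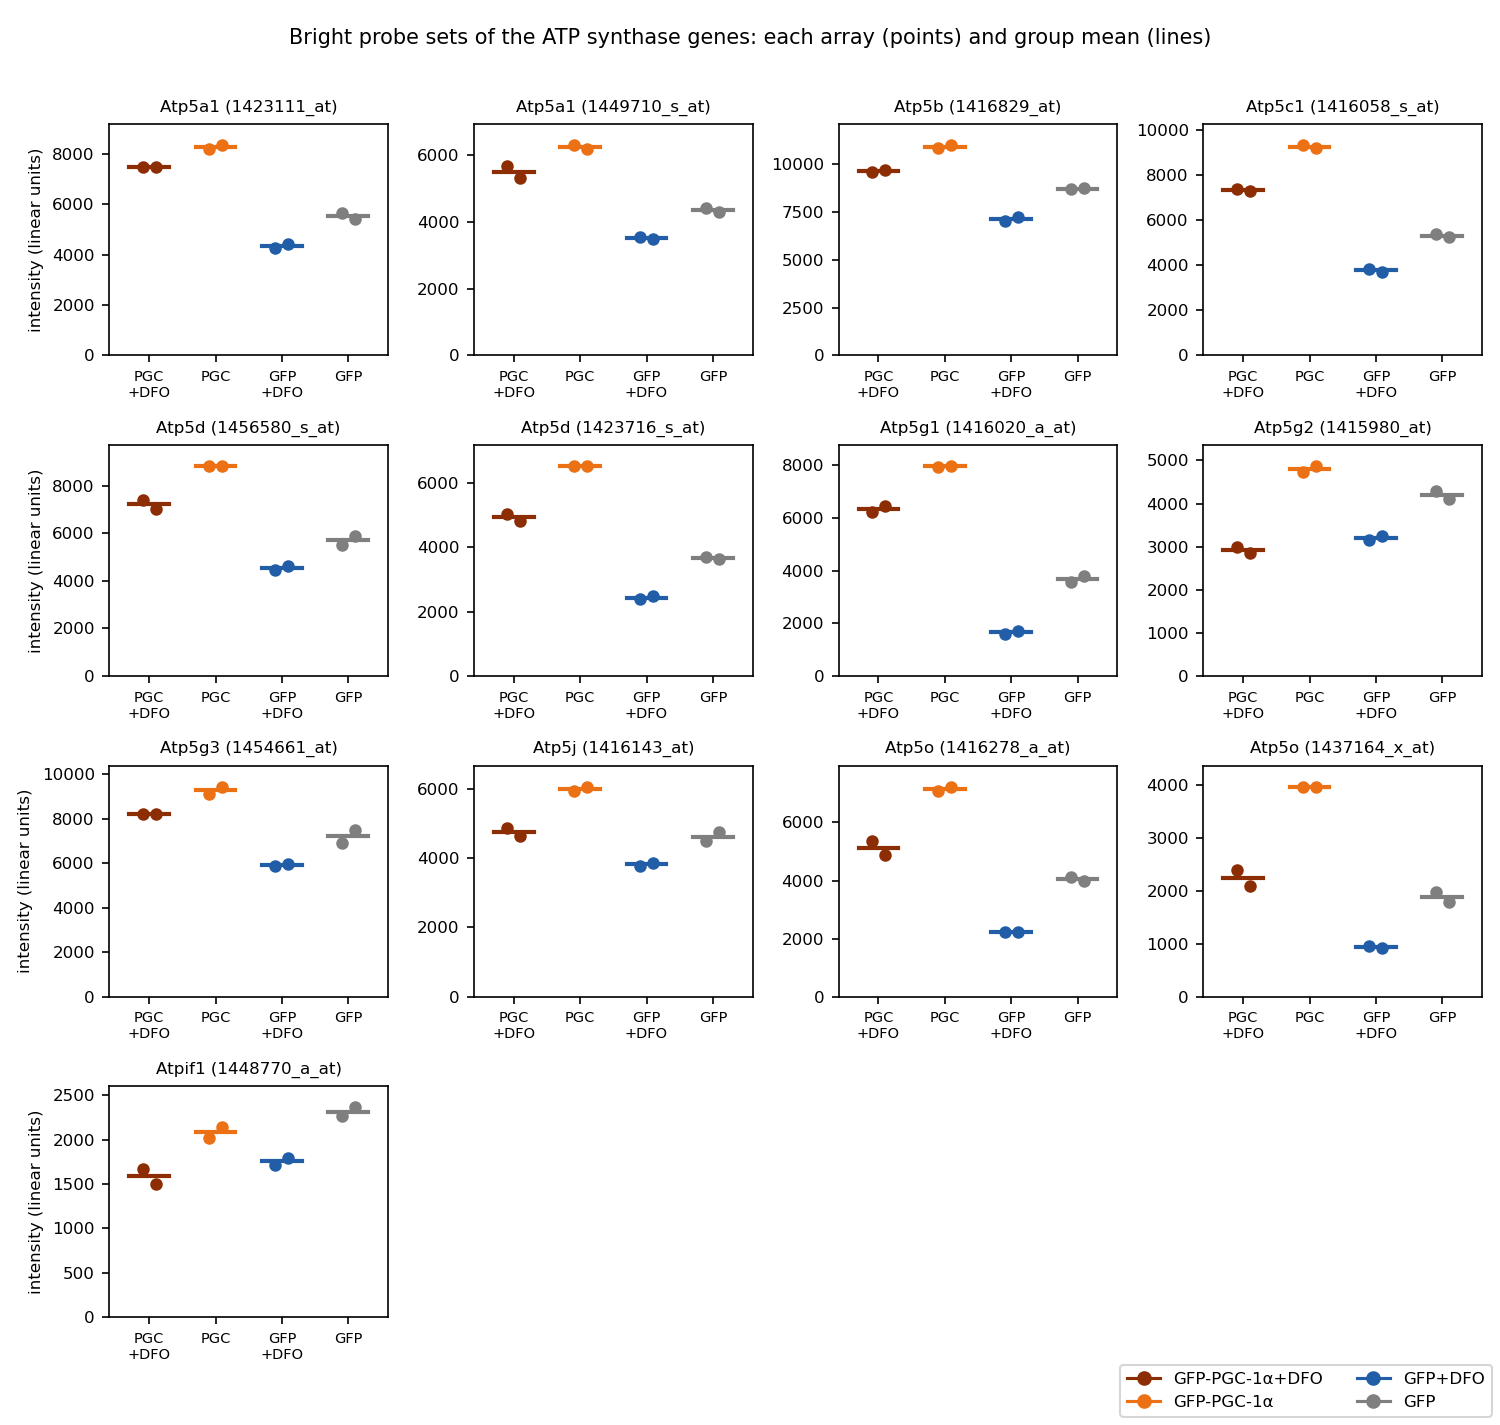
Intensity (linear units, from 0) of the 13 bright probe sets on each of the 8 arrays (points, 2 a group) with the group mean (line); PGC stands for GFP-PGC-1α. On these deposited values, 11 panels are highest with GFP-PGC-1α and lowest with GFP+DFO, while Atp5g2 and Atpif1 are lowest with GFP-PGC-1α+DFO.

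A probe set was called where the limma p-value, adjusted over all 45037 probe sets, was under 0.05. With GFP-PGC-1α against GFP, 6 of the 20 members were called higher and 0 lower, where 1.93% of all probe sets were called higher and 1.06% lower, and 3.48% of those above the median level were called higher. The 6 were the bright probe sets of Atp5c1, Atp5d (both), Atp5g1 and Atp5o (both). With GFP-PGC-1α+DFO against GFP+DFO, 8 of 20 were called higher and 0 lower, against backgrounds of 3.28% higher, 5.61% lower, and 5.65% higher above the median level. These were the same genes and Atp5a1 (both bright probe sets). The median log2 change of the 20 members was 0.37 without DFO and 0.58 with it, while that of all probe sets was -0.09 and -0.06. Without any 1 of the GFP-PGC-1α, GFP or GFP+DFO arrays 0 of the 6 were called, and without either GFP-PGC-1α+DFO array 5 members were. Under DFO, 1 member was called without either GFP+DFO array, and 5 to 6 without any other array.

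With DFO against none in GFP-PGC-1α cells, 0 of the 20 were called higher and 3 lower (Atp5g2 and both bright probe sets of Atp5o), where 6.76% of all probe sets were called higher and 8.93% lower, and 15.6% of those above the median level were called lower. The count of 3 was close to these shares. With DFO in GFP cells, 0 were called higher and 5 lower (Atp5c1, 1 probe set of Atp5d, Atp5g1 and both bright ones of Atp5o), against backgrounds of 6.79% higher, 7.17% lower, and 12.4% lower above the median level. The median log2 change of the members was -0.28 in GFP-PGC-1α cells and -0.37 in GFP cells, against 0.02 and -0.01 for all probe sets. In GFP-PGC-1α cells 0 members were called without either GFP-PGC-1α array, and 2 of the 3 were still called lower without any other. Without either GFP array a dim probe set of Atpif1 was called higher besides. In GFP cells 1 was called without the first GFP array or either GFP+DFO array, 3 without the second GFP array, and 4 to 5 without any other. The comparisons share arrays, so their values are not independent of one another.

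**Figure D2:**
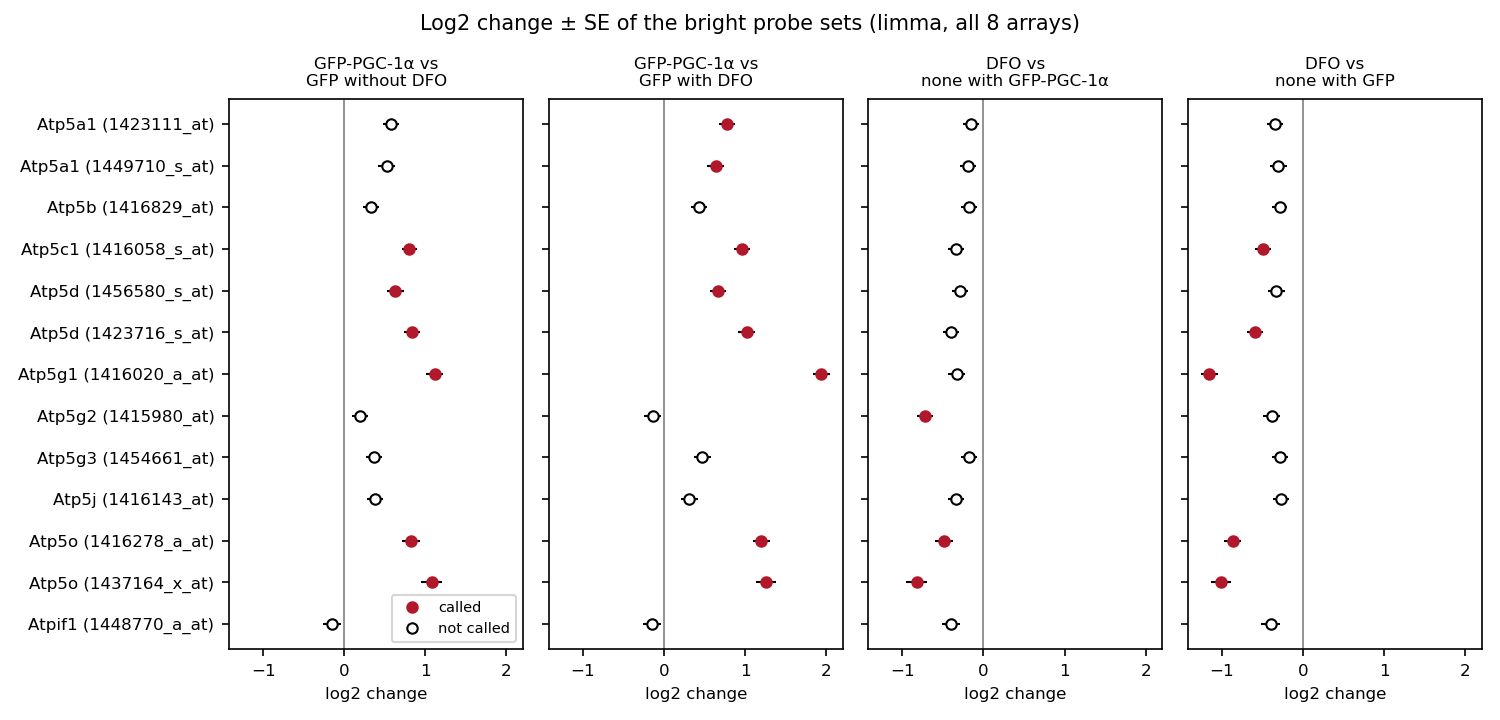
Log2 change ± SE (x axis) of the 13 bright probe sets (rows) in 4 comparisons, from limma on all 8 arrays; filled points were called. Atp5g1 moved most with the construct, by 1.11 without DFO and 1.94 with it. In the comparisons of the construct, Atp5g2 and Atpif1 lay nearest to 0 on these deposited values.

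The arrays had medians close to one another as deposited. A scaling to the 24 probe sets of the poly-A spike-in controls, transcripts added to a sample before labelling, moved the comparisons with GFP-PGC-1α+DFO. Their mean log2 level was 8.11 and 7.97 on the GFP-PGC-1α+DFO arrays, 8.61 and 8.35 with GFP-PGC-1α, 8.77 and 8.54 with GFP+DFO, and 8.68 and 8.63 with GFP. On that scaling the median log2 change of all probe sets became 0.46 for DFO in GFP-PGC-1α cells, 0.56 for the construct under DFO and 0.60 for both factors, against 0.02, -0.06 and -0.02 as deposited. The share of calls that were higher became 78.5%, 92.5% and 84.6%, against 43.1%, 36.9% and 40.3%, and for the construct without DFO 85.8% against 64.6%. With DFO in GFP-PGC-1α cells 10 of the 13 bright members then turned to a positive log2 change, all but Atp5g2 and the pair of Atp5o, and the values ran from -0.39 to 0.29. Relative to the median of all probe sets they stayed below 0. With the construct all 13 were then above 0, Atp5g2 and Atpif1 included, and with DFO in GFP cells all 13 were below 0 on both scalings. Without DFO, 0 members were called higher with the construct on this scaling, the log2 change of Atp5g1 being 1.29 (adjusted p = 0.074).

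**Figure D3:**
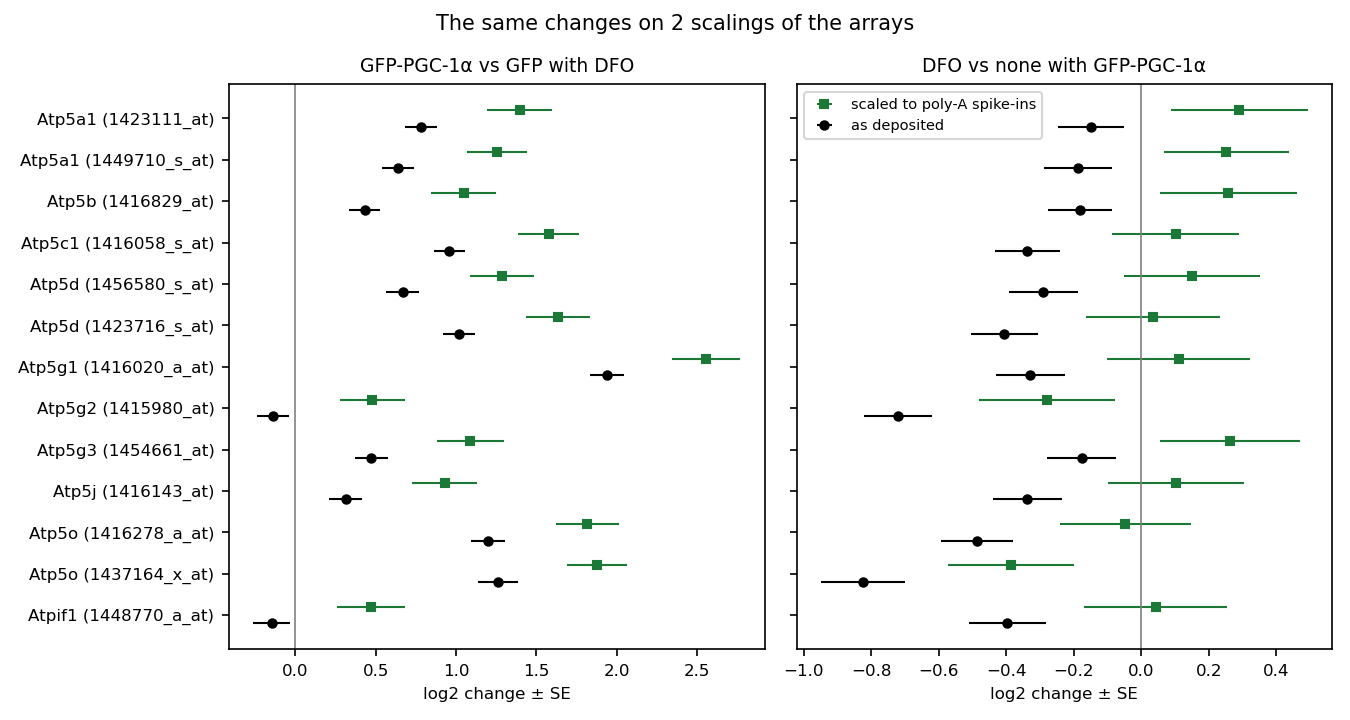
Log2 change ± SE (x axis) of the 13 bright probe sets with the deposited values (circles) and after scaling to the poly-A spike-ins (squares), for the construct under DFO and for DFO in GFP-PGC-1α cells. With spike-in scaling the changes with DFO in GFP-PGC-1α cells run from -0.39 to 0.29, and those with the construct from 0.47 to 2.56.

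The catalytic head is built from the α subunit (Atp5a1) and the β subunit (Atp5b), which holds the catalytic sites. Atp5b read 9588 and 9700 units with GFP-PGC-1α+DFO, 10863 and 11004 with GFP-PGC-1α, 7064 and 7233 with GFP+DFO, and 8696 and 8747 with GFP. The groups did not overlap, yet no comparison was called. The log2 change of Atp5b with the construct was 0.33 ± 0.10 without DFO (95% interval 0.08 to 0.57; limma adjusted p = 0.155) and 0.43 ± 0.10 with DFO (0.19 to 0.68; adjusted p = 0.0573). With DFO it was -0.18 ± 0.10 in GFP-PGC-1α cells and -0.29 ± 0.10 in GFP cells (adjusted p = 0.288 and 0.127).

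The brighter probe set of Atp5a1 read 7465 and 7469 units with GFP-PGC-1α+DFO, 8209 and 8348 with GFP-PGC-1α, 4280 and 4410 with GFP+DFO, and 5641 and 5433 with GFP. Both construct groups stood above both GFP groups. Atp5a1 rose by 0.78 ± 0.10 with the construct under DFO, 1.72-fold (limma adjusted p = 0.0141), and by 0.64 ± 0.10 on its other bright probe set (adjusted p = 0.0256). Without DFO the 2 log2 changes were 0.58 ± 0.10 and 0.52 ± 0.10 and were not called (adjusted p = 0.0519 and 0.0697). Its other bright probe set read 5672 and 5303 units with GFP-PGC-1α+DFO, 6295 and 6192 with GFP-PGC-1α, 3560 and 3488 with GFP+DFO, and 4423 and 4281 with GFP, in the same order of groups.

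Atp5c1 encodes γ, the shaft of the central stalk that turns inside the head. It read 7365 and 7310 units with GFP-PGC-1α+DFO, 9327 and 9210 with GFP-PGC-1α, 3835 and 3713 with GFP+DFO, and 5372 and 5253 with GFP. The construct raised it 1.74-fold without DFO and 1.94-fold with DFO (log2 changes 0.80 ± 0.10 and 0.96 ± 0.10; limma adjusted p = 0.0239 and 0.00869). With DFO it fell by 0.49 ± 0.10 in GFP cells (adjusted p = 0.0307), and in GFP-PGC-1α cells the log2 change was -0.34 ± 0.10 (adjusted p = 0.0808).

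Atp5d encodes δ, which sits at the foot of γ where it meets the c ring. Its first bright probe set (1423716_s_at) read 5036 and 4803 units with GFP-PGC-1α+DFO, 6516 and 6506 with GFP-PGC-1α, 2381 and 2473 with GFP+DFO, and 3698 and 3625 with GFP. The construct raised it by 0.83 ± 0.10 without DFO and 1.02 ± 0.10 with DFO (limma adjusted p = 0.0235 and 0.00795). With DFO it fell by 0.59 ± 0.10 in GFP cells (adjusted p = 0.0194). The second (1456580_s_at) read 7398 and 7028 units with GFP-PGC-1α+DFO, 8826 and 8806 with GFP-PGC-1α, 4456 and 4619 with GFP+DFO, and 5521 and 5878 with GFP. It rose less with the construct, by 0.63 ± 0.10 and 0.67 ± 0.10 (adjusted p = 0.0482 and 0.0233), and its log2 change with DFO in GFP cells, -0.33 ± 0.10, was not called (adjusted p = 0.109).

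In the c ring Atp5g1 and Atp5g3 had the same order of groups, and Atp5g2 had another. Atp5g1 read 6219 and 6450 units with GFP-PGC-1α+DFO, 7930 and 7971 with GFP-PGC-1α, 1604 and 1699 with GFP+DFO, and 3567 and 3778 with GFP. The highest group mean was the largest multiple of the lowest among the bright members, and its 4 groups stood apart. The construct raised Atp5g1 2.17-fold without DFO and 3.84-fold with DFO (log2 changes 1.11 ± 0.10 and 1.94 ± 0.10; limma adjusted p = 0.0142 and 0.00295). With DFO it fell by 1.15 ± 0.10 in GFP cells (adjusted p = 0.00357), while in GFP-PGC-1α cells the log2 change was -0.33 ± 0.10 (adjusted p = 0.101).

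Atp5g2 read 2981 and 2850 units with GFP-PGC-1α+DFO, 4725 and 4874 with GFP-PGC-1α, 3162 and 3256 with GFP+DFO, and 4284 and 4111 with GFP. Here the 2 groups without DFO stood above the 2 with it, whichever virus was given. The log2 change with the construct was 0.19 ± 0.10 without DFO (95% interval -0.06 to 0.45) and -0.14 ± 0.10 with DFO (-0.39 to 0.12; 0.48 on the spike-in scaling), neither called (limma adjusted p = 0.359 and 0.484). With DFO Atp5g2 fell by 0.72 ± 0.10 in GFP-PGC-1α cells (adjusted p = 0.0107; -0.28 on the spike-in scaling, adjusted p = 0.371), and in GFP cells the log2 change was -0.39 ± 0.10 (adjusted p = 0.0673).

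Atp5g3 read 8204 and 8230 units with GFP-PGC-1α+DFO, 9129 and 9446 with GFP-PGC-1α, 5891 and 5952 with GFP+DFO, and 6913 and 7509 with GFP. It kept the order of groups of Atp5g1 with a smaller spread. Its log2 changes with the construct were 0.37 ± 0.10 without DFO and 0.47 ± 0.10 with DFO (limma adjusted p = 0.143 and 0.0548), and with DFO -0.18 ± 0.10 in GFP-PGC-1α cells and -0.28 ± 0.10 in GFP cells (adjusted p = 0.332 and 0.153).

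The estimated change with the construct, averaged over both levels of DFO, was larger for Atp5g1 than for Atp5g2 by 1.50 and than for Atp5g3 by 1.11 on the log2 scale, and lower for Atp5g2 than for Atp5g3 by 0.39. An exact two-sided permutation test over arrays gave p = 0.0556 for each of the 3, the smallest that its 36 permutations allow, and adjusted p = 0.148 over the 32 comparisons of this kind. A p under 0.05 could not be reached in this design. These differences of changes lie within an array, so a scaling that shifts all log2 values of an array alike leaves them as they are. Quantile normalization is not such a shift, and the differences were not computed under it.

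**Figure D4:**
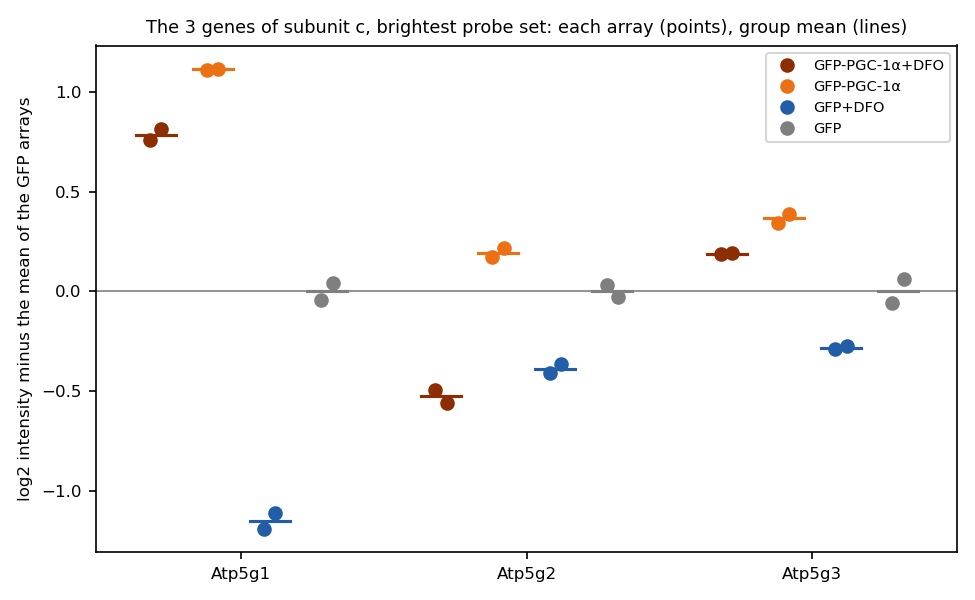
Log2 intensity of the brightest probe set of Atp5g1, Atp5g2 and Atp5g3 on each array (points) minus the mean of the GFP arrays, with group means (lines). GFP-PGC-1α+DFO stands above GFP by 0.79 for Atp5g1 and 0.19 for Atp5g3, and below it for Atp5g2, where the log2 change is -0.53.

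The peripheral stalk is represented by Atp5o, the oligomycin sensitivity-conferring protein that fixes the stalk to the top of the head, and by Atp5j, coupling factor 6. The brighter probe set of Atp5o read 5374 and 4869 units with GFP-PGC-1α+DFO, 7095 and 7238 with GFP-PGC-1α, 2227 and 2222 with GFP+DFO, and 4106 and 3996 with GFP. The other (1437164_x_at) read 2397 and 2079 units with GFP-PGC-1α+DFO, 3962 and 3945 with GFP-PGC-1α, 953 and 909 with GFP+DFO, and 1969 and 1788 with GFP. Both kept the order of groups seen in most members, and no other gene was called on every bright probe set in all 4 comparisons of a single factor. The construct raised Atp5o by 0.82 ± 0.11 and 1.08 ± 0.12 without DFO and by 1.20 ± 0.11 and 1.26 ± 0.12 with DFO (limma adjusted p = 0.028, 0.0217, 0.00634 and 0.00814). With DFO it fell by 0.49 ± 0.11 and 0.82 ± 0.12 in GFP-PGC-1α cells and by 0.86 ± 0.11 and 1.01 ± 0.12 in GFP cells (adjusted p = 0.0379, 0.0131, 0.00816 and 0.00817). On the spike-in scaling neither fall in GFP-PGC-1α cells was called, the log2 changes being -0.047 and -0.39 (adjusted p = 0.883 and 0.209). The call of the brighter probe set there was also lost without any 1 of the 8 arrays.

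Atp5j read 4879 and 4630 units with GFP-PGC-1α+DFO, 5942 and 6066 with GFP-PGC-1α, 3785 and 3863 with GFP+DFO, and 4487 and 4741 with GFP. Its GFP-PGC-1α+DFO and GFP arrays overlapped. The log2 change with the construct was 0.38 ± 0.10 without DFO (95% interval 0.12 to 0.64) and 0.31 ± 0.10 with DFO (0.06 to 0.57), neither called (limma adjusted p = 0.131 and 0.138). With DFO it was -0.34 ± 0.10 in GFP-PGC-1α cells and -0.27 ± 0.10 in GFP cells (adjusted p = 0.0915 and 0.164).

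Atpif1 encodes the small inhibitor protein that binds the head and stops the enzyme from splitting ATP when the proton gradient fails. Its bright probe set read 1672 and 1500 units with GFP-PGC-1α+DFO, 2024 and 2147 with GFP-PGC-1α, 1715 and 1795 with GFP+DFO, and 2265 and 2366 with GFP. At both levels of DFO the GFP-PGC-1α arrays were below the GFP arrays on the deposited scale. On the spike-in scaling the log2 change of Atpif1 was 0.025 ± 0.21 without DFO and 0.47 ± 0.21 with DFO (adjusted p = 0.974 and 0.179). The log2 change with the construct was -0.15 ± 0.11 both without DFO (95% interval -0.44 to 0.14) and with it (-0.43 to 0.14), neither called (limma adjusted p = 0.514 and 0.51). With DFO the log2 change was -0.40 ± 0.11 in both GFP-PGC-1α and GFP cells, also not called (adjusted p = 0.0797 and 0.0845).

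With both factors together, GFP-PGC-1α+DFO against GFP, 4 of the 20 members were called higher and 2 lower, where 8.32% of all probe sets were called higher, 12.3% lower, and 14% of those above the median level higher. As shares of the members these were 20% higher, near the 14%, and 10% lower, below the 12.3%. The counts alone therefore do not set the members apart. The rises were Atp5g1 by 0.79 ± 0.10, Atp5c1 by 0.47 ± 0.10, and 1 probe set each of Atp5a1 and Atp5d by 0.43 ± 0.10 (limma adjusted p = 0.00639, 0.0267, 0.0345 and 0.0378). Atpif1 fell by 0.55 ± 0.11 and Atp5g2 fell by 0.53 ± 0.10 (adjusted p = 0.0264 and 0.0208), and on the spike-in scaling both turned, to 0.068 and 0.091 (adjusted p = 0.83 and 0.762). Without 1 array in turn 1 to 3 of the members were called, and Atp5g1 was called without each of the 8.

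The interaction asks whether the change with the construct differed between the levels of DFO. By limma 0 of the 20 members were called, against 0.00888% of all probe sets higher, 0.0155% lower and 0.0178% higher above the median level, and 1 member had an unadjusted p under 0.05. That member was Atp5g1, whose change with the construct was larger under DFO by 0.82 ± 0.15 (95% interval 0.46 to 1.19; adjusted p = 0.162). The interaction was 0.38 ± 0.15 on the brighter probe set of Atp5o and -0.33 ± 0.14 for Atp5g2 (adjusted p = 0.381 and 0.411), that of Atp5g2 turning to 0.11 on the spike-in scaling.

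The 7 dim probe sets stayed at 3.04 to 98.88 units on every array, near or below 60.4 units, the median of all probe sets, and 0 of them were called in any of the 6 comparisons on the deposited values. They belong to Atp5a1 (1), Atp5c1 (1), Atp5g1 (1), Atp5g2 (2) and Atpif1 (2). The dim probe set of Atp5g1 (1444874_at) read 11.1 and 12.6 units with GFP-PGC-1α+DFO, 3.45 and 11.8 with GFP-PGC-1α, 6.69 and 10.1 with GFP+DFO, and 22.5 and 15.0 with GFP, so that GFP stood highest and not GFP-PGC-1α. With low values raised to each array's 25th percentile, its log2 change with the construct under DFO was -0.0098, against 0.52 as deposited. The dim probe set of Atp5c1 (1438809_at) read 82.7 and 98.9 units with GFP-PGC-1α+DFO, 31.3 and 69.4 with GFP-PGC-1α, 63.2 and 86.1 with GFP+DFO, and 44.6 and 90.6 with GFP. Its GFP arrays spanned those of the other groups but 1 array on each side. A dim probe set of Atpif1 (1453681_at) read 89.1 and 97.5 units with GFP-PGC-1α+DFO, 45.1 and 57.3 with GFP-PGC-1α, 80.3 and 77.4 with GFP+DFO, and 73.6 and 51.5 with GFP. With DFO in GFP-PGC-1α cells its groups did not overlap, and its log2 change of 0.87 ± 0.22 (limma adjusted p = 0.0554), not called, ran opposite to that of the bright probe set. It was called higher there on the spike-in scaling (1.31; adjusted p = 0.0409), among probe sets above the median level (adjusted p = 0.00921), with low values raised to each array's 25th percentile (0.0255), with trend and robust eBayes (0.0213) and without either GFP array (0.0441). Which part of a transcript each probe set reads was not analysed here.

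**Figure D5:**
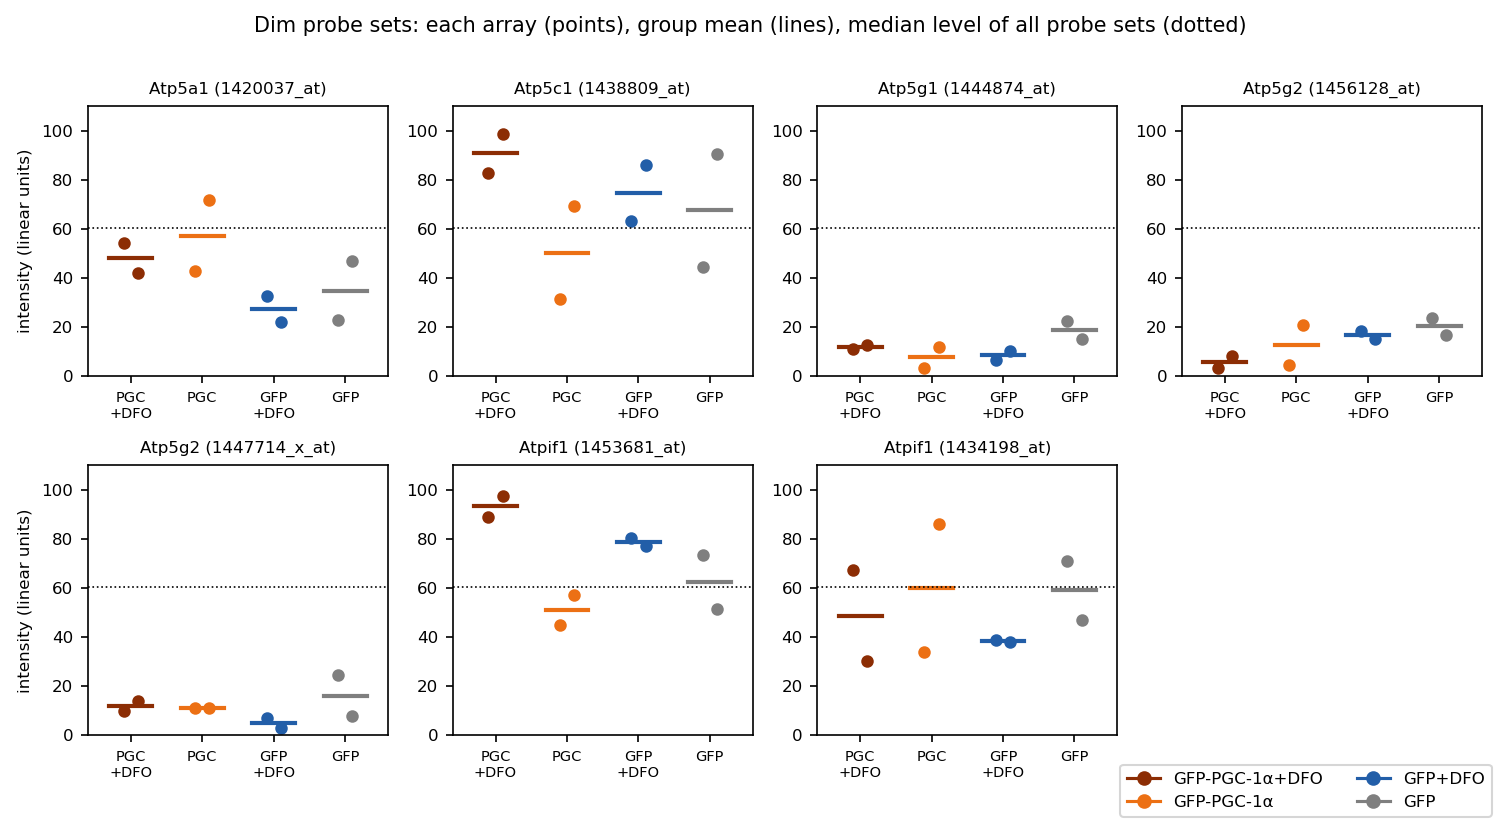
Intensity (linear units, from 0) of the 7 dim probe sets on each array (points) with group means (lines) and the median level of all probe sets, 60.4 units (dotted line). The 2 arrays of a group often lie as far apart as the groups do.

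Bright probe sets of 1 gene had the same order of groups, while the size of change could differ. The estimated change with the construct was larger by 0.10 on the brighter probe set of Atp5a1 and smaller by 0.28 on the second of Atp5d, and the change with DFO differed by 0.19 between those of Atp5d and by 0.24 between those of Atp5o (log2 scale; exact permutation p = 0.0556 each, the smallest possible; adjusted p = 0.148). With DFO the difference between the bright probe sets of Atp5a1 was -0.0035, and with the construct that between those of Atp5o was -0.16 (exact permutation p = 0.889 and 0.111). No difference between bright probe sets of 1 gene had an adjusted p under 0.05. The correlation with the mean profile of the members over the 8 arrays was 0.96 to 1.00 for the 11 bright probe sets other than those of Atp5g2 and Atpif1, which had 0.56 and 0.26. That profile is the members' own mean and the arrays share group and scaling, so the values only describe which members depart from it. Among 9086 other genes, those most like the profile were Nfyc (0.999), Tmem120b, Hspbp1, Etfa, Hspa9 and Chchd4 (0.995), and 246 genes passed a correlation of 0.95.

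The rest of the enzyme and its assembly factors had 19 probe sets of 12 genes. With the construct 7 were called higher and 0 lower without DFO, and 12 and 0 with DFO, with medians of 0.59 and 0.70. All 19 lay above the median level, where 3.48% were called higher without DFO and 5.65% with it. With DFO 0 were called higher and 8 lower in GFP-PGC-1α cells and 0 and 10 in GFP cells, with medians of -0.37 and -0.50, where 15.6% and 12.4% of probe sets above the median level were called lower. These counts and medians are for the deposited values and were not taken on the spike-in scaling. That scaling moved the median of all probe sets for DFO in GFP-PGC-1α cells from 0.02 to 0.46. Atp5j2 and Tmem70 were named after their values were seen. A probe set of Atp5j2, the f subunit of the membrane part, rose by 0.90 ± 0.10 and 1.07 ± 0.10 with the construct (limma adjusted p = 0.0219 and 0.00793). Of the 3 probe sets of Atp5j2, 2 were called higher with the construct at each level of DFO. Tmem70, a factor known for c ring assembly, rose with the construct by 1.09 ± 0.14 without DFO (adjusted p = 0.0257) and had 0.43 ± 0.14 with DFO (adjusted p = 0.129). With DFO Tmem70 was called lower in both GFP-PGC-1α and GFP cells. Dmac2l and Atp5e, also of this list, were called lower with DFO in both as well, and higher in no comparison.

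The carriers that bring phosphate (Slc25a3) and exchange ADP for ATP (Slc25a4, Slc25a5) had 14 probe sets, 8 of them for Slc25a5 alone, so that the counts rest mostly on 1 gene. Of the 14, 10 were called higher with the construct without DFO and 11 with DFO, against 1.93% and 3.28% of all probe sets, and 8 of each count were Slc25a5. Above the median level, where 12 of the 14 lay, 3.48% and 5.65% were called higher. With DFO 0 were called lower in GFP-PGC-1α cells and 10 in GFP cells, 8 of them Slc25a5, against 8.93% and 7.17% of all probe sets. Among those above the median level the shares were 15.6% and 12.4%. The 6 largest called changes were all on probe sets of Slc25a5. The brightest of them in GFP-PGC-1α cells averaged 8642 ± 120 units with GFP-PGC-1α+DFO, 8962 ± 16.1 with GFP-PGC-1α, 1777 ± 57.5 with GFP+DFO and 3427 ± 217 with GFP (SD, n = 2). It rose by 2.28 ± 0.11 with the construct under DFO (adjusted p = 0.00264). The log2 change with DFO was -0.05 ± 0.11 in GFP-PGC-1α cells (adjusted p = 0.797) and -0.95 ± 0.11 in GFP cells (adjusted p = 0.00634), and the interaction, 0.89 ± 0.15, was not called (adjusted p = 0.156). The values of the carriers are on the deposited scale and were not examined on the spike-in scaling.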

How the data were processed

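RNA from 8 C2C12 cultures was made into biotinylated cRNA for Affymetrix arrays, per the labels' protocols. The authors deposited 1 intensity a probe set, on a linear scale. Not given in the sources used here are the steps of probe summary, background correction and scaling. The log2 of each deposited intensity was used, without pseudocount or filter, and probe sets were named through the platform's annotation. Control probe sets (64 of 45101) were left out, as were names from the 932 probe sets with several symbols. The fit used limma 3.58.1 in R 4.3.3, with a mean for each group over all 8 arrays and plain eBayes (residual degrees of freedom 4, prior 1.27). Two-sided p-values of 6 contrasts were adjusted by Benjamini-Hochberg over 45037 probe sets and called at 0.05. Differences between probe sets were tested by exact permutation over arrays.

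The members, the lists of other genes and the myotube markers were chosen with earlier results of these data known. All member probe sets are counted, and 4 dim ones are given only by their range. Of the enzyme's other genes and the carriers, the rule named the 6 probe sets with the largest called single-factor change above the median level. Atp5j2, Tmem70, Dmac2l and Atp5e were added after their values were seen, as was the divide of 500 units between bright and dim. Likeness named the 6 genes closest to the members' mean profile. Motifs were counted in RefSeq promoter windows. The procedure was tested on simulated data. Replicate numbers were not taken as pairs, since deviations of same-numbered arrays correlated between -0.09 and 0.17. With 2 arrays against 2, exact permutation cannot give a p below 0.333, so calls rest on the spread that limma pools, and the number of arrays limits precision. Alternatives were quantile normalization, scaling to spike-ins, 1 probe set per gene, only probe sets above the median level, a floor at each array's 25th percentile, trend and robust eBayes, a fit of only the compared groups, the replicate block, and leaving out each array. Plots used matplotlib 3.10.9 (Python 3.11.15).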

Additional observations from a re-analysis of the deposited data

Results flagged for a closer look

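The bright probe set of Atp5g2 had a log2 change with the construct above 0 without DFO and below 0 with DFO, with no overlap of arrays in either pair. The difference was tested as an interaction, -0.33 on the log2 scale, and limma did not call it (adjusted p = 0.411). On the spike-in scaling both changes of Atp5g2 with the construct were above 0, at 0.37 without DFO and 0.48 with DFO. The dim probe set of Atp5g1 (1444874_at) went the other way, below 0 without DFO and above 0 with DFO, with an interaction of 2.05 that limma did not call either (adjusted p = 0.407). It read 3.45 to 22.5 units, far below the median level of 60.4 units. The share of all probe sets with such opposite changes and no overlap was not counted, so neither result can be read as particular to the members. Groups of 2 arrays are too small for a test of outlying arrays.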

How the results depend on the processing

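Counts of called members are given in the order construct without DFO, construct with DFO, DFO in GFP-PGC-1α cells, DFO in GFP cells, and both factors, where the deposited values gave 6, 8, 3, 5 and 6, of which 2 of the last and all those with DFO alone were lower. Spike-in scaling gave 0, 10, 1, 2 and 11, where the 1 and the 11 were higher, and quantile normalization 7, 10, 3, 5 and 8. With 1 probe set per gene (10 members) the counts were 6, 7, 6, 8 and 7. Among probe sets above the median level (15 members) they were 11, 11, 10, 13 and 10, while the share of all such probe sets called was 21.7%, 36.1%, 44.7%, 41.7% and 51.4%. The floor gave 8, 10, 8, 8 and 9, and trend and robust eBayes 12, 11, 14, 13 and 12. The share of all probe sets called moved as well, from 2.99%, 8.89%, 15.7%, 14% and 20.6% as deposited. It was 0.797%, 7.63%, 12.6%, 6.09% and 24% with spike-in scaling and 3.75%, 9.2%, 16.8%, 15.2% and 21.7% with quantile normalization. With 1 probe set per gene it was 9.73%, 18.9%, 25.6%, 24.2% and 31.8%. With the floor it was 7.42%, 14.4%, 20.9%, 18.6% and 25.2%, and with trend and robust eBayes 12.8%, 19.1%, 24%, 22% and 27.8%. Above the median level, with the floor and with trend and robust eBayes, 1 member call for DFO in GFP-PGC-1α cells was higher, the dim Atpif1 probe set. With only the groups compared, which leaves fewer residual degrees of freedom, the counts of members were 0, 0, 0, 3 and 0. The shares of all probe sets were then 0%, 0%, 1.38%, 6.66% and 5.22%. The replicate block gave 0, 6, 2, 4 and 2, against 0.546%, 4.21%, 11.7%, 9.82% and 16.8% of all probe sets. Each group held 1 array of each replicate number, so the block could not change a direction. The replicate numbers did not pair the arrays. Leaving out each array gave 0 to 5, 1 to 6, 0 to 3, 1 to 5 and 1 to 3. For the interaction 0 members were called, except 1 among probe sets above the median level (Atp5g1) and 3 with trend and robust eBayes (Atp5g1, Atp5g2 and a probe set of Atp5o).

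Over all probe sets the counts moved by more than 1.5 times as follows, against 1346, 4004, 7068, 6288, 9289 and 11 for the 5 comparisons and the interaction as deposited, out of 45037 probe sets. With 1 probe set per gene 18193 were tested and above the median level 22518, so their counts are not comparable as such. Without DFO the construct gave 359 with spike-in scaling, 4897 above the median level, 3343 with the floor, 5746 with trend and robust eBayes, 246 with the replicate block and 0 with only the groups compared. With DFO the construct gave 8137 above the median level, 6504 with the floor, 8588 with trend and robust eBayes, 1896 with the replicate block and 0 with only the groups compared. DFO in GFP-PGC-1α cells gave 4662 with 1 probe set per gene (25.6% of those tested), 10805 with trend and robust eBayes and 620 with only the groups compared. DFO in GFP cells gave 2745 with spike-in scaling, 9913 with trend and robust eBayes and 2998 with only the groups compared. Both factors gave 5786 with 1 probe set per gene (31.8% of those tested) and 2349 with only the groups compared. The interaction gave 17 with quantile normalization, 3 with spike-in scaling, 101 with 1 probe set per gene, 1198 above the median level, 391 with the floor, 2127 with trend and robust eBayes and 1 with the replicate block. Leaving out each array gave 27 to 1083, 147 to 3421, 2817 to 5515, 1543 to 6404 and 5238 to 7825, and 0 for the interaction in every case.

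Among log2 changes of the bright probe sets and of dim ones of Atp5g1, Atp5c1 and Atpif1, 18 turned under an alternative other than leaving out an array, 51 lost a call and 110 gained one. Spike-in scaling turned the change with DFO in GFP-PGC-1α cells to 0.29 and 0.25 for Atp5a1, 0.26 for Atp5b, 0.10 for Atp5c1, 0.035 and 0.15 for Atp5d, 0.11 for Atp5g1, 0.26 for Atp5g3, 0.10 for Atp5j and 0.043 for Atpif1. It turned Atp5g2 to 0.48 for the construct with DFO, 0.091 for both factors and 0.11 for the interaction. It turned Atpif1 to 0.025 and 0.47 for the construct without and with DFO and to 0.068 for both factors, and the interaction of Atp5j to 0.37. These turns follow from the spike-in levels, which were lowest on the GFP-PGC-1α+DFO arrays, and the cause was not tested. The floor turned the dim probe set of Atp5g1 to -0.0098 for the construct with DFO. Leaving out an array turned the dim probe set of Atp5c1, which ran from -1.02 to 0.13 for the construct without DFO, -0.30 to 0.72 for DFO in GFP cells and -0.0031 to 1.02 for both factors. The interaction ran from -0.0067 to 0.084 for 1 probe set of Atp5d (1456580_s_at) and from -0.075 to 0.082 for Atpif1. Atp5g1 was called lower with DFO in GFP cells under every alternative listed. Signal over background limits the dim probe sets.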
